A study of Mus musculus with 9 samples.

Results

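Plexins, semaphorins and neuropilins form a ligand and receptor system that cells use to read contacts with their neighbours. The account below covers 10 of its genes, which are 5 plexins (Plxna1, Plxna2, Plxnb2, Plxnc1 and Plxnd1), 3 semaphorins (Sema4a, Sema4d and Sema7a) and 2 neuropilins (Nrp1 and Nrp2), of 22180 mouse genes that had a measurement of their own. Members were chosen by symbol and by mean level, with earlier results of these arrays known, so the choice was not blind to the differences. Each gene was matched by its symbol to the transcript clusters (the probe sets of a gene on the array) that the platform annotation gives to that symbol alone, and where a gene had several, the cluster brightest on average over the 9 arrays was used. All 10 genes had a cluster, and Plxna1 alone had more than 1.

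The study profiled phagocytes of the mouse Peyer's patch, the lymphoid tissue in the wall of the small intestine that samples antigen from the gut. The populations were lysozyme-expressing macrophages (LysoMac) and lysozyme-expressing dendritic cells (LysoDC) that carried or lacked the complement C5a receptor at the surface (C5aR+ LysoDC and C5aR- LysoDC), with 3 arrays for each. Patches were digested, dead cells were removed, CD11c-bearing cells were enriched on beads, and the populations were sorted with antibodies that read C5aR, CD11c, MHC class II, CD4, BST2 and SIRP. No group received a treatment in the labels, and strain, genotype, age, the number of animals, pooling and sort gates were not stated in the labels. For arrays 2 and 3 of C5aR- LysoDC another receptor stands in the source field, and the titles, which name C5aR, were followed. The labels tie no array to an animal or a sort, so the p-values measure the spread between these arrays, which may be technical.

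Semaphorins are secreted or membrane-bound ligands, plexins are their main signalling receptors, and neuropilins are co-receptors that bind secreted semaphorins and vascular endothelial growth factors but have little signalling capacity of their own. The cytoplasmic part of a plexin acts on small GTPases, and through them on the cytoskeleton and on integrin adhesion. In the immune system plexin-A1 is known as a dendritic cell receptor that can associate with Trem2 and the adaptor Tyrobp and can bind Sema6d, while Sema4a, Sema4d and Sema7a are membrane semaphorins of immune cells that act on T cells, B cells and myeloid cells.

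In RefSeq's mouse annotation (GRCm38.p6) the plexin genes lie at chr6:89316313-89362613 (Plxna1), chr1:194619791-194816869 (Plxna2), chr15:89155546-89182018 (Plxnb2), chr10:94790866-94945015 (Plxnc1) and chr6:115954811-115995339 (Plxnd1). The semaphorin genes lie at chr3:88435959-88461182 (Sema4a), chr13:51685529-51793678 (Sema4d) and chr9:57939596-57962865 (Sema7a), and the neuropilin genes at chr8:128358591-128505476 (Nrp1) and chr1:62703317-62818692 (Nrp2). The array reads whole transcripts, so each value stands for the exons of a gene and not for a single isoform.

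The stretches just before Plxna2, Nrp2 and Sema4a are shown because all 3 LysoMac arrays lay apart from all 6 LysoDC arrays in these genes, above them in the first pair and below them in Sema4a. Nrp1 was a further gene of that kind, and its promoter window lies inside the annotated gene and is not shown. The sequences are RefSeq's, from GRCm38.p6, on the strand of the gene, and capitals mark GAGGAA, the core read by the myeloid factor PU.1, and GGGCGG, the GC box read by Sp factors, on either strand, where overlapping matches run together.
Plxna2, chr1:194619579-194619790, plus strand: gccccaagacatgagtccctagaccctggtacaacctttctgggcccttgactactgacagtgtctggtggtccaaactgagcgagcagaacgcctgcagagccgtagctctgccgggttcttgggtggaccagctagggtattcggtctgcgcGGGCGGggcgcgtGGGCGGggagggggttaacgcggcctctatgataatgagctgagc
Nrp2, chr1:62703067-62703316, plus strand: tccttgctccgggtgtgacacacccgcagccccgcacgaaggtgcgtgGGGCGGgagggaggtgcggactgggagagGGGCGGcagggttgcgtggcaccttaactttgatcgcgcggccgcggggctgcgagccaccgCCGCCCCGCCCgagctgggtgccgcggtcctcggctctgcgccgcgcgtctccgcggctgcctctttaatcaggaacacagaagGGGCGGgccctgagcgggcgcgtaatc
Sema4a, chr3:88461183-88461432, minus strand: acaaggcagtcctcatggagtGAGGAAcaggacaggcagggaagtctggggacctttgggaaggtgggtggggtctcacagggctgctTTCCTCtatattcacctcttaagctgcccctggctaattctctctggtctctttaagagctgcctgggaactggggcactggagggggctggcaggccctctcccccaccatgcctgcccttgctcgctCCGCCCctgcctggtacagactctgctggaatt

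Plxna2 and Nrp2 carried 2 and 5 GC boxes in these windows and no GAGGAA, while the Sema4a window held 2 GAGGAA cores and 1 GC box. RefSeq's promoter table gave 15 windows for 9 of the 10 genes, since several genes have more than 1 start. GAGGAA lay in 5 of the 15 windows, against 23.3% of all 32851 windows of 250 bases, and GGGCGG lay in 12 of 15, against 32.7% of all. The E-box CACGTG was in 0 of 15 windows (6.02% of all) and the AP-1 motif TGANTCA in 1 of 15, before Sema4d (6.75% of all). These counts describe letters and are no evidence of binding. Windows of the same gene are not independent, and windows 2 and 3 of Sema4a overlap.

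All values below are log2 expression as deposited, so a difference of 1 is a factor of 2, and differences were tested with limma over all 33793 clusters with Benjamini-Hochberg adjustment and a threshold of 0.05. Levels of different genes come from different probes and are not compared with each other. In sorted bulk samples fewer cells of a type and less RNA per cell cannot be told apart.

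The labels were first set against marker genes. C5ar1, which encodes the receptor used in the sort, measured 4.92, 4.09 and 5.04 in C5aR+ LysoDC and 3.04, 2.72 and 3.27 in C5aR- LysoDC, where its mean was below every array's median. LysoMac arrays measured 4.62, 4.19 and 4.99 for C5ar1. Mertk, a macrophage receptor for dying cells, ranged from 7.84 to 8.12 in LysoMac, from 6.54 to 7.69 in C5aR+ LysoDC and from 5.64 to 5.98 in C5aR- LysoDC. The macrophage markers Fcgr1 and Adgre1, an Fc receptor gene and the gene of F4/80, had their lowest means in LysoMac, of 4.64 and 5.87, against 7.94 and 7.63 for C5aR+ LysoDC and 6.46 and 6.47 for C5aR- LysoDC. Flt3, a growth factor receptor of dendritic cells, ranged from 3.49 to 3.85 in LysoMac, from 4.23 to 4.47 in the C5aR+ cells and from 6.54 to 8.02 in the C5aR- cells. Zbtb46, a defining factor of conventional dendritic cells, ranged from 3.77 to 4.26 in C5aR+ LysoDC, which was not above the 3.87 to 4.41 of LysoMac, and from 4.86 to 5.45 in C5aR- LysoDC. Over 8 dendritic cell markers the mean level per array ranged from 4.50 to 4.79 in LysoMac and from 5.26 to 5.42 in C5aR+ LysoDC. It ranged from 6.50 to 7.14 in C5aR- LysoDC. In C5aR+ LysoDC against LysoMac 6 of the 8 had differences above 0 and 2 below 0, and none passed. Arrays did not overlap in 4 of the 8, with C5aR+ LysoDC higher in each, as in Ccr7 (2.00, limma adjusted p = 0.0972). Among sort targets, class II transcripts did pass there. H2-Ab1 differed by 2.34, H2-Aa by 2.57 (limma adjusted p = 0.000191 for each) and H2-Eb1 by 2.48 (limma adjusted p = 0.00196). Cd4 differed by -2.39 without overlap of arrays, and did not pass (limma adjusted p = 0.104). Of 10 genes of sort targets and lysozyme, 3 passed and 7 did not.

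The LysoMac arrays differed among themselves more than the others did, and this touched the genes described here. The mean over the 10 genes was 7.76, 7.40 and 8.56 in LysoMac arrays 1, 2 and 3, against 7.55 to 7.66 for C5aR+ LysoDC and 7.37 to 7.50 for C5aR- LysoDC. LysoMac array 3 was the highest LysoMac array in 9 of the 10 genes, and it was so in 46.5% of 13511 genes whose highest population mean reached the median of all values. LysoMac array 2 was the lowest LysoMac array in 8 of the 10 genes, against 50.1% of those genes. The median SD of the 10 genes was 0.638 for LysoMac, 0.304 for C5aR+ LysoDC and 0.356 for C5aR- LysoDC. Over those 13511 genes it was 0.326, 0.213 and 0.204. The interquartile range over all clusters was 2.16 in LysoMac array 2 and 2.48 to 2.68 in the other arrays. LysoMac array 3 had a mean correlation of 0.954 with the other LysoMac arrays and 0.968 with the LysoDC arrays.

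**Figure D1:**
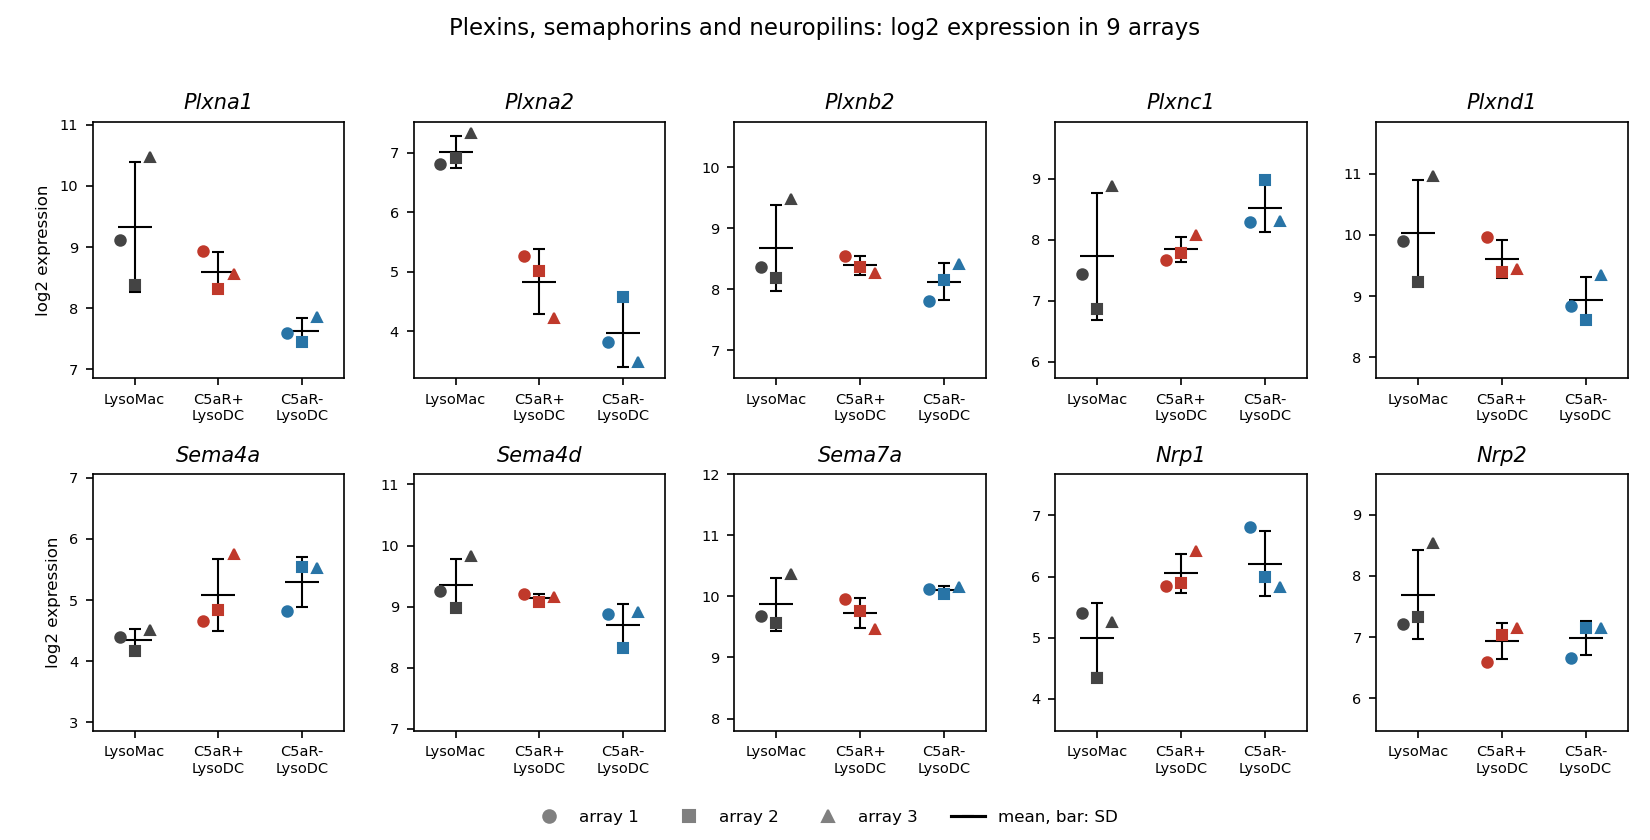
Log2 expression of the 10 genes (vertical axis, deposited log2 values, the same span in each panel) in LysoMac, C5aR+ LysoDC and C5aR- LysoDC (horizontal axis). Symbols are single arrays, dashes are means and bars are SD over 3 arrays; the 3 LysoMac arrays lay above all 6 LysoDC arrays in Plxna2 and Nrp2 and below them in Sema4a and Nrp1.

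Plxna2 was the one gene of the 10 that passed the test, and it was lower in C5aR- LysoDC than in LysoMac. Plexin-A2 is a receptor of transmembrane semaphorins of the Sema6 group and, with neuropilins, of secreted semaphorins. Its level was 6.81, 6.92 and 7.32 in LysoMac, 5.26, 5.02 and 4.22 in C5aR+ LysoDC and 3.83, 4.58 and 3.49 in C5aR- LysoDC. LysoMac arrays were close together and far above the rest, and the ranges of the LysoDC populations overlapped each other. The mean of 3.96 ± 0.56 (SD, n = 3) in C5aR- LysoDC was near the median of all values, 3.495, where an array has little power to measure a further decrease. C5aR- LysoDC differed from LysoMac by -3.05 ± 0.34 (SE), which is 8.30-fold lower, with a limma adjusted p of 0.00428. Across the genome 1.53% of clusters passed that comparison, with 0.405% lower and 1.13% higher in C5aR- LysoDC, and of the 10 genes 1 was lower and 0 were higher.

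C5aR+ LysoDC lay between the other populations for Plxna2. Its mean of 4.83 was 2.19 ± 0.34 (SE) below LysoMac on the log2 scale, and every C5aR+ LysoDC array was below every LysoMac array. This difference had an unadjusted limma p of 0.000102 and an adjusted p of 0.110, in a comparison where 0.0503% of all clusters passed, so it did not pass. C5aR+ LysoDC exceeded C5aR- LysoDC by 0.87 (95% interval 0.11 to 1.62), with a limma adjusted p of 0.761 and overlapping arrays. In this last comparison 0.101% of clusters passed, of which those lower in C5aR+ LysoDC were 0.0947% of all clusters. None of the 10 genes passed either comparison with C5aR+ LysoDC.

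The F test over the populations called 1 of the 10 genes, Plxna2, with a limma adjusted p of 0.0108, and 0.755% of all clusters. Without LysoMac array 1 its adjusted F-test p was 0.057, and without any other single array it lay between 0.011 and 0.0476. The difference of C5aR- LysoDC from LysoMac passed under all 20 alternatives tried, with values from -3.36 to -2.81. That of C5aR+ LysoDC from LysoMac passed in 1 of the 20, with a weight estimated for each array, at -1.92 and a limma adjusted p of 0.0197. Those weights were 7.13, 0.243 and 0.35 for LysoMac arrays 1, 2 and 3, so the LysoMac mean then rested mostly on array 1.

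**Figure D2:**
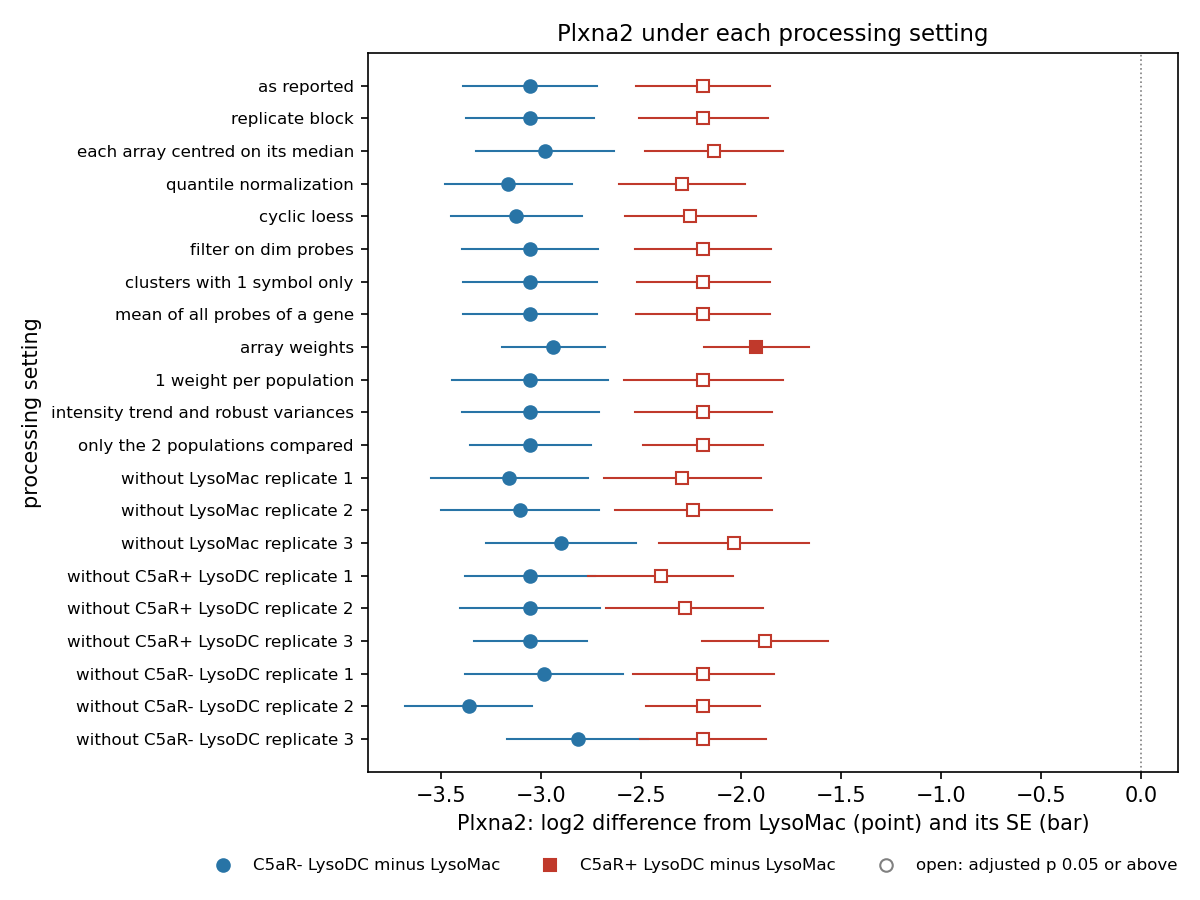
Plxna2 difference from LysoMac (horizontal axis, log2) for C5aR- LysoDC (circles) and C5aR+ LysoDC (squares) under each processing setting (vertical axis), with the SE as a bar. Filled symbols passed an adjusted p of 0.05; the C5aR- LysoDC symbol is filled in each setting, and the C5aR+ LysoDC symbol in the 1 setting with array weights.

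Of 8 measured macrophage markers 4 (Mertk, Cx3cr1, C1qb and C1qc) were lower in C5aR- LysoDC than in LysoMac by the same test, the direction of Plxna2. C1qa and Csf1r had differences of -0.75 and -0.91 there, and Fcgr1 and Adgre1 had differences above 0, of 1.81 and 0.60, and none of these passed. In C5aR+ LysoDC against LysoMac 5 of the 8 had differences below 0, with a median of -0.09 over the list, while Fcgr1 and Adgre1 had 3.30 and 1.75, and no macrophage marker passed. The mean level of the list ranged from 8.22 to 8.84 over the arrays of LysoMac, from 8.69 to 9.28 over those of C5aR+ LysoDC and from 7.73 to 8.31 over those of C5aR- LysoDC. Their part in the Plxna2 difference was not tested. The genes whose levels followed Plxna2 most closely over the 9 arrays, among 12537 compared, were Csprs (Pearson r = 0.966), Epb41l3 (r = 0.958) and P3h4 (r = 0.957). Epb41l3, which encodes a membrane-cytoskeleton linker, had means of 7.33 in LysoMac, 6.01 in the C5aR+ cells and 4.94 in the C5aR- cells. The arrays come from the same populations, so these correlations are a description only.

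Plxna1, the dendritic cell plexin that pairs with Trem2 and Tyrobp, had its highest mean in LysoMac. It measured 9.12, 8.38 and 10.48 in LysoMac, 8.94, 8.31 and 8.55 in C5aR+ LysoDC and 7.60, 7.44 and 7.86 in C5aR- LysoDC. All C5aR- LysoDC arrays were below all other arrays, while the arrays of LysoMac and C5aR+ LysoDC overlapped. C5aR- LysoDC differed from LysoMac by -1.69 (95% interval -2.70 to -0.69; limma adjusted p = 0.129), and C5aR+ LysoDC exceeded C5aR- LysoDC by 0.97 (-0.04 to 1.97; limma adjusted p = 0.937). The first of these passed in 4 of 20 alternatives, among them the fit without LysoMac array 2, at -2.17 with a limma adjusted p of 0.0467. Without LysoMac array 3 it was -1.12 (limma adjusted p = 0.0607). The difference of C5aR+ LysoDC from LysoMac was -0.73 (limma adjusted p = 0.809), and it was -1.20 without LysoMac array 2 and -0.15 without LysoMac array 3. A second, dimmer Plxna1 cluster, with array values from 3.45 to 4.54, differed by -0.57 in the same comparison (limma adjusted p = 0.247).

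Plxnd1, a receptor of Sema3e that also binds Sema4a, had the same order of means as Plxna1. Its level was 9.90, 9.23 and 10.96 in LysoMac, 9.96, 9.40 and 9.44 in C5aR+ LysoDC and 8.84, 8.60 and 9.34 in C5aR- LysoDC. C5aR+ LysoDC arrays were all above C5aR- LysoDC arrays, by a narrow margin, and LysoMac overlapped both. The difference of C5aR- LysoDC from LysoMac was -1.10 (95% interval -2.002 to -0.20; limma adjusted p = 0.281), and that of C5aR+ LysoDC from C5aR- LysoDC was 0.67 (-0.23 to 1.57; limma adjusted p = 1). Without LysoMac array 3 the first of these was -0.64 (limma adjusted p = 0.241). C5aR+ LysoDC differed from LysoMac by -0.43, which was 0.0343 without LysoMac array 3 and -0.83 without LysoMac array 2.

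Plxnb2, a receptor of Sema4 ligands, measured 8.37, 8.19 and 9.48 in LysoMac, 8.55, 8.36 and 8.26 in C5aR+ LysoDC and 7.81, 8.16 and 8.41 in C5aR- LysoDC. Only LysoMac array 3 stood clear of the other arrays, and each pair of populations overlapped. Its differences were -0.55 for C5aR- LysoDC against LysoMac (95% interval -1.27 to 0.16) and -0.29 for C5aR+ LysoDC against LysoMac, and without LysoMac array 3 they were -0.15 and 0.11.

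Plxnc1, the plexin that binds Sema7a, had its highest mean in C5aR- LysoDC, unlike the other 4 plexins among the 10 genes. The values were 8.29, 8.98 and 8.30 there, 7.66, 7.79 and 8.07 in C5aR+ LysoDC and 7.43, 6.86 and 8.88 in LysoMac. C5aR+ LysoDC arrays were all below C5aR- LysoDC arrays, and LysoMac spanned nearly the whole range of both. Its difference between C5aR- LysoDC and LysoMac was 0.80 (95% interval -0.21 to 1.81; limma adjusted p = 0.483), and that between C5aR+ LysoDC and C5aR- LysoDC was -0.68 (-1.69 to 0.33; limma adjusted p = 1). Without LysoMac array 3 the first difference was 1.38 with a limma adjusted p of 0.0374, and without LysoMac array 2 it was 0.37 with a limma adjusted p of 0.824. The difference of C5aR+ LysoDC from LysoMac, 0.11, lay between -0.32 and 0.69 over the alternatives.

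Among the semaphorins none passed a comparison. Sema4a, a membrane semaphorin that co-stimulates T cells, was the one with its lowest mean in LysoMac. It measured 4.39, 4.17 and 4.50 in LysoMac, 4.65, 4.83 and 5.75 in C5aR+ LysoDC and 4.83, 5.55 and 5.52 in C5aR- LysoDC, so every LysoDC array was above every LysoMac array and the LysoDC populations overlapped. The differences from LysoMac were 0.95 in C5aR- LysoDC (95% interval 0.26 to 1.63; limma adjusted p = 0.224) and 0.72 in C5aR+ LysoDC (0.04 to 1.41; limma adjusted p = 0.801), the latter 0.39 without C5aR+ LysoDC array 3.

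Sema4d, known as CD100, a ligand of B-type plexins and of CD72 on B cells, had its lowest mean in C5aR- LysoDC. It measured 9.26, 8.97 and 9.82 in LysoMac, 9.20, 9.07 and 9.16 in C5aR+ LysoDC and 8.88, 8.32 and 8.91 in C5aR- LysoDC. All C5aR- LysoDC arrays were below all other arrays, and the other populations overlapped. C5aR- LysoDC differed from LysoMac by -0.65 (95% interval -1.18 to -0.11; limma adjusted p = 0.289) and C5aR+ LysoDC from C5aR- LysoDC by 0.44 (-0.10 to 0.98; limma adjusted p = 1). The first was -0.41 without LysoMac array 3, and the second 0.25 without array 2 of C5aR- LysoDC.

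Sema7a, a lipid-anchored ligand of Plxnc1 and of integrin, was the flattest of the 10 genes between C5aR- LysoDC and LysoMac. Its values were 9.68, 9.56 and 10.37 in LysoMac, 9.96, 9.76 and 9.47 in C5aR+ LysoDC and 10.12, 10.03 and 10.16 in C5aR- LysoDC. C5aR- LysoDC arrays had an SD of 0.063 and were all above those of C5aR+ LysoDC, from which the difference was -0.37 with a 95% interval from -0.88 to 0.13. C5aR- LysoDC differed from LysoMac by 0.23 (-0.27 to 0.74; limma adjusted p = 0.680), which was 0.48 without LysoMac array 3 and 0.08 without LysoMac array 2. The ligand and its receptor Plxnc1 thus had the same order between the LysoDC populations in these arrays, with neither difference past the test.

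The neuropilins had differences of opposite sign between LysoMac and LysoDC, and neither passed the test. Nrp1, a co-receptor for secreted semaphorins and for vascular endothelial growth factor, measured 5.40, 4.33 and 5.26 in LysoMac, 5.84, 5.90 and 6.41 in C5aR+ LysoDC and 6.82, 5.99 and 5.82 in C5aR- LysoDC. Every LysoDC array was above every LysoMac array. The differences were 1.21 for C5aR- LysoDC (95% interval 0.44 to 1.99; limma adjusted p = 0.157) and 1.05 for C5aR+ LysoDC (0.28 to 1.83; limma adjusted p = 0.739), and the LysoDC populations differed by -0.16 (limma adjusted p = 1). Nrp2, its relative, measured 7.22, 7.33 and 8.54 in LysoMac, 6.60, 7.04 and 7.15 in C5aR+ LysoDC and 6.66, 7.15 and 7.15 in C5aR- LysoDC. Every LysoDC array was below every LysoMac array, the nearest by a small margin. Nrp2 differed from LysoMac by -0.71 in C5aR- LysoDC (95% interval -1.47 to 0.06; limma adjusted p = 0.414) and by -0.76 in C5aR+ LysoDC (limma adjusted p = 0.801), and without LysoMac array 3 these were -0.28 and -0.34. Its deposited values hold exact ties, with 7 distinct values over the 9 arrays.

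Endothelial cells are known for both Nrp1 and Kdr, and their markers had a mean level per array from 3.44 to 3.71 in LysoMac, from 3.85 to 3.90 in C5aR+ LysoDC and from 3.85 to 3.87 in C5aR- LysoDC. Of these 8 markers 4 lay below every array's median in each population, and the one that passed a comparison was Kdr itself. Markers of plasmacytoid dendritic cells, which are also known to carry neuropilin, ranged from 4.53 to 5.00, from 4.74 to 5.01 and from 4.58 to 5.20 in the same order. T cell markers ranged from 4.09 to 4.73, from 3.91 to 4.31 and from 4.05 to 4.16, and B cell markers from 5.04 to 5.16, from 5.46 to 5.88 and from 5.66 to 5.92. Stromal markers ranged from 3.58 to 3.86, from 3.90 to 4.40 and from 4.04 to 4.34. One of the B cell markers, Cr2, and one of the stromal markers, Lum, were higher in C5aR- LysoDC than in LysoMac, by 1.64 (limma adjusted p = 0.0029) and 2.77 (limma adjusted p = 0.0353). The endothelial marker Pecam1 differed from LysoMac by 1.24 in C5aR- LysoDC and 1.31 in C5aR+ LysoDC, without overlap of arrays. Neither difference passed (limma adjusted p = 0.145 and 0.593). Of the 8 endothelial markers 5 had differences above 0 and 3 below 0 in C5aR- LysoDC against LysoMac. The part of these markers in the Nrp1 and Sema4a differences was not tested.

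**Figure D3:**
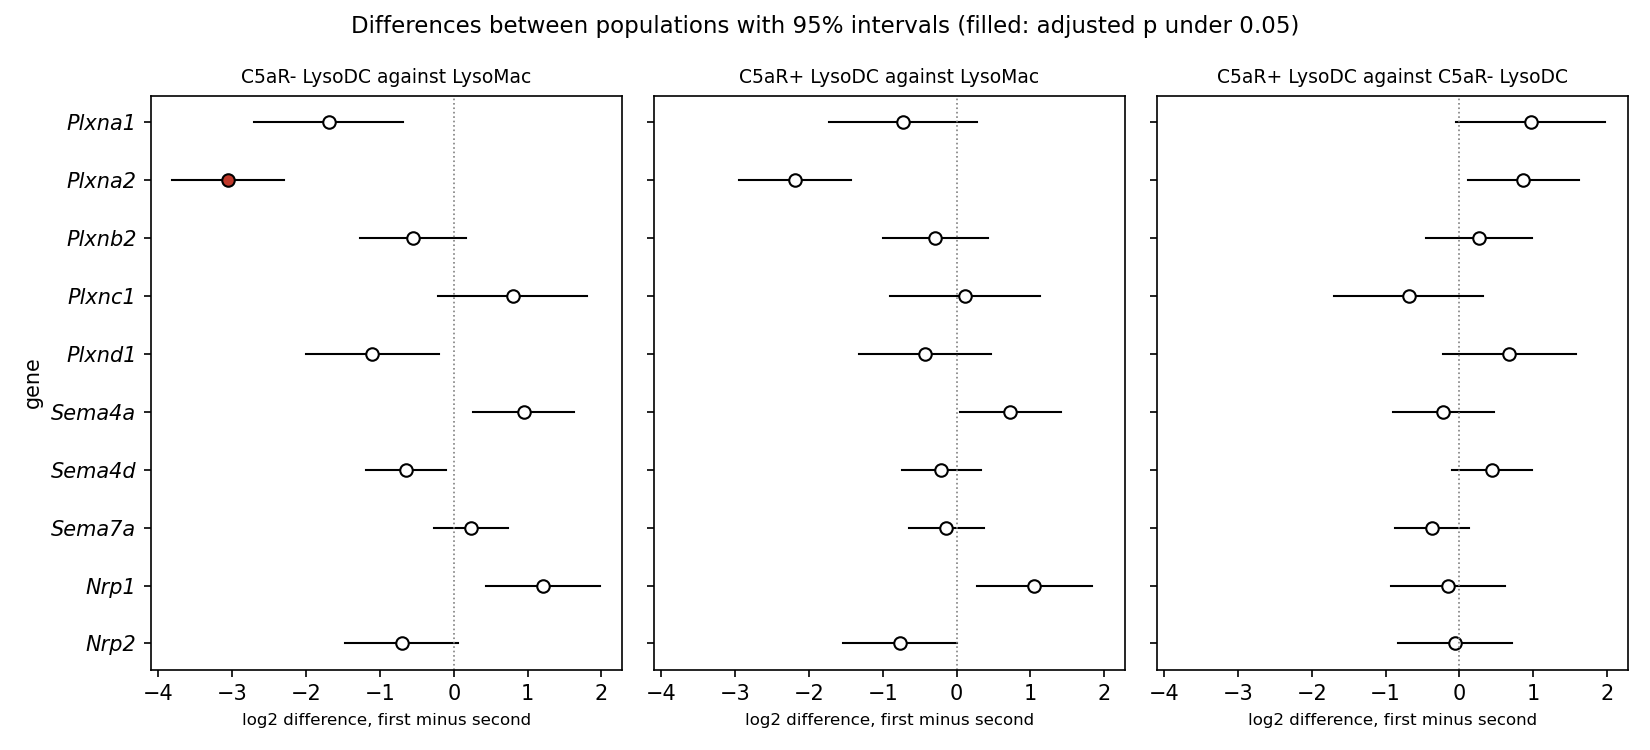
Log2 difference of each gene (vertical axis) in the comparisons between populations (horizontal axis, first population minus the second), with 95% intervals as lines. The filled point passed an adjusted p of 0.05 and is Plxna2 in C5aR- LysoDC against LysoMac, at -3.05; the other points are open.

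Over the 10 genes together, the highest mean was that of LysoMac in 6 and of C5aR- LysoDC in 4, and never that of C5aR+ LysoDC. At an unadjusted limma p under 0.05, 6 of the 10 genes differed between C5aR- LysoDC and LysoMac (13.2% of all clusters), 3 between C5aR+ LysoDC and LysoMac (6.19%) and 1 between the LysoDC populations (5.46%). Arrays did not overlap in 6 of 10 genes between C5aR- LysoDC and LysoMac (14.2% of all clusters), in 4 of 10 between C5aR+ LysoDC and LysoMac (7.89%) and in 5 of 10 between the LysoDC populations (10.2%). LysoMac arrays were all above or all below all LysoDC arrays in 4 of 10 genes and in 4.50% of all clusters. The 10 genes were chosen with earlier results of these arrays known, so these shares describe them and show nothing particular to the family. The median difference over the 10 genes was -0.60 for C5aR- LysoDC against LysoMac, -0.25 for C5aR+ LysoDC against LysoMac and 0.10 between the LysoDC populations, where that over all clusters was -0.06, -0.04 and 0.02.

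The rest of the pathway was read from lists that held 63 further genes, of which 61 had a cluster of their own. In C5aR- LysoDC against LysoMac 3 were higher, 1 was lower and 57 did not pass, where 1.13% of all clusters were higher and 0.405% lower. The median difference of the 61 there was 0.0017. In C5aR+ LysoDC against LysoMac none passed by limma, with 12 at an unadjusted p under 0.05, against 6.19% of all clusters. Between the LysoDC populations 1 passed, lower in C5aR+ LysoDC, against 0.101% of all clusters. The lists were chosen with earlier results known, so these counts are a description only.

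Of the 4 other plexins, Plxna4 was higher in C5aR- LysoDC, the opposite direction to Plxna2. It measured 6.35, 5.63 and 5.01 there, 4.15, 4.28 and 4.46 in C5aR+ LysoDC and 4.03, 4.07 and 3.70 in LysoMac. C5aR- LysoDC arrays were clear of all others, and the difference from LysoMac was 1.73 ± 0.30 (SE; limma adjusted p = 0.0279), against 0.36 for C5aR+ LysoDC. The difference between the LysoDC populations, -1.37, had a limma adjusted p of 0.211. The call against LysoMac was lost in 7 of 20 alternatives, with limma adjusted p up to 0.120: without LysoMac array 1 or 2, C5aR+ LysoDC array 1 or 2 or C5aR- LysoDC array 2, with 1 weight per population, and with only the compared arrays in the fit.

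Of the 17 other semaphorins, Sema6d, the transmembrane ligand of plexin-A1, was lower in C5aR- LysoDC, and it was the only one that passed. It measured 7.23, 7.68 and 7.95 in LysoMac, 7.24, 6.91 and 6.93 in C5aR+ LysoDC and 6.37, 6.20 and 6.43 in C5aR- LysoDC, where every array was below every other array. C5aR- LysoDC differed from LysoMac by -1.28 ± 0.20 (SE; limma adjusted p = 0.0159), and C5aR+ LysoDC from LysoMac by -0.59 (limma adjusted p = 0.745). The call had limma adjusted p of 0.0540 without array 1 of C5aR- LysoDC, 0.0889 without its array 2, and 0.0631 with only the compared arrays in the fit.

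Of 12 co-receptors and other receptors, L1cam and Kdr were higher in C5aR- LysoDC. L1cam, an adhesion molecule that binds Nrp1, measured 4.07, 4.11 and 3.70 in LysoMac, 4.02, 3.52 and 4.23 in C5aR+ LysoDC and 5.99, 6.03 and 6.21 in C5aR- LysoDC, whose arrays alone stood clear of the others. It was higher in C5aR- LysoDC than in LysoMac by 2.11 ± 0.20 (SE; limma adjusted p = 0.00265), and C5aR+ LysoDC differed from C5aR- LysoDC by -2.15 ± 0.20 (limma adjusted p = 0.0124). The latter call was lost in 4 of 20 alternatives, with limma adjusted p of 0.0800 without C5aR+ LysoDC array 1, 0.0505 without array 1 of C5aR- LysoDC, 0.0696 without its array 2, and 0.0739 with only the compared arrays.

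The mean level of 8 epithelial and M cell markers was highest in C5aR- LysoDC, as was that of L1cam. Per array it ranged from 4.65 to 5.19 in C5aR- LysoDC, from 3.89 to 4.09 in C5aR+ LysoDC and from 3.76 to 4.09 in LysoMac. By the same test 3 of the 8 (Epcam, Cdh1 and Gp2) were higher in C5aR- LysoDC than in LysoMac, as were 1.13% of all clusters. Of the 8, 6 had differences above 0 there and 2 below 0. Neither of these 2 passed. One was Vil1, with means of 2.52 in C5aR- LysoDC and 3.01 in LysoMac, both below every array's median. The part of these markers in the L1cam difference was not tested.

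Kdr, the growth factor receptor that works with Nrp1, measured 4.72, 4.63 and 4.39 in LysoMac, 5.21, 5.34 and 5.32 in C5aR+ LysoDC and 5.48, 5.21 and 5.51 in C5aR- LysoDC. All LysoDC arrays were above all LysoMac arrays, as for Nrp1. The difference in C5aR- LysoDC was 0.82 ± 0.15 (SE; limma adjusted p = 0.0318), and it was lost in 11 of 20 alternatives, with limma adjusted p up to 0.109. In C5aR+ LysoDC it was 0.71 (limma adjusted p = 0.282). The partners of plexin-A1 did not pass in any comparison: Trem2 differed between C5aR- LysoDC and LysoMac by -0.17 and Tyrobp by -0.42 (limma adjusted p = 0.323). C5aR+ LysoDC exceeded C5aR- LysoDC by 0.60 for Trem2 (limma adjusted p = 0.571) and by 0.47 for Tyrobp (limma adjusted p = 0.670). Against LysoMac, C5aR+ LysoDC differed by 0.44 for Trem2 and 0.04 for Tyrobp.

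None of the 4 other neuropilin ligands passed, and those named by the rule on mean level are Vegfa, at -0.03 in C5aR- LysoDC and 0.20 in C5aR+ LysoDC against LysoMac, and Vegfb, at -0.55 and -0.42. None of 24 genes of signalling inside the cell passed by limma. In C5aR- LysoDC against LysoMac 10 of the 24 had an unadjusted limma p under 0.05, against 13.2% of all clusters. The median difference of the 24 there was 0.23. Those named by the same rule are the GTPase genes Rap1b, at 0.34, and Rhoa, at 0.62 with a limma adjusted p of 0.223. Further clusters of both genes had differences of the opposite sign, -0.14 for Rap1b and -0.62 and -0.53 for Rhoa.

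**Figure D4:**
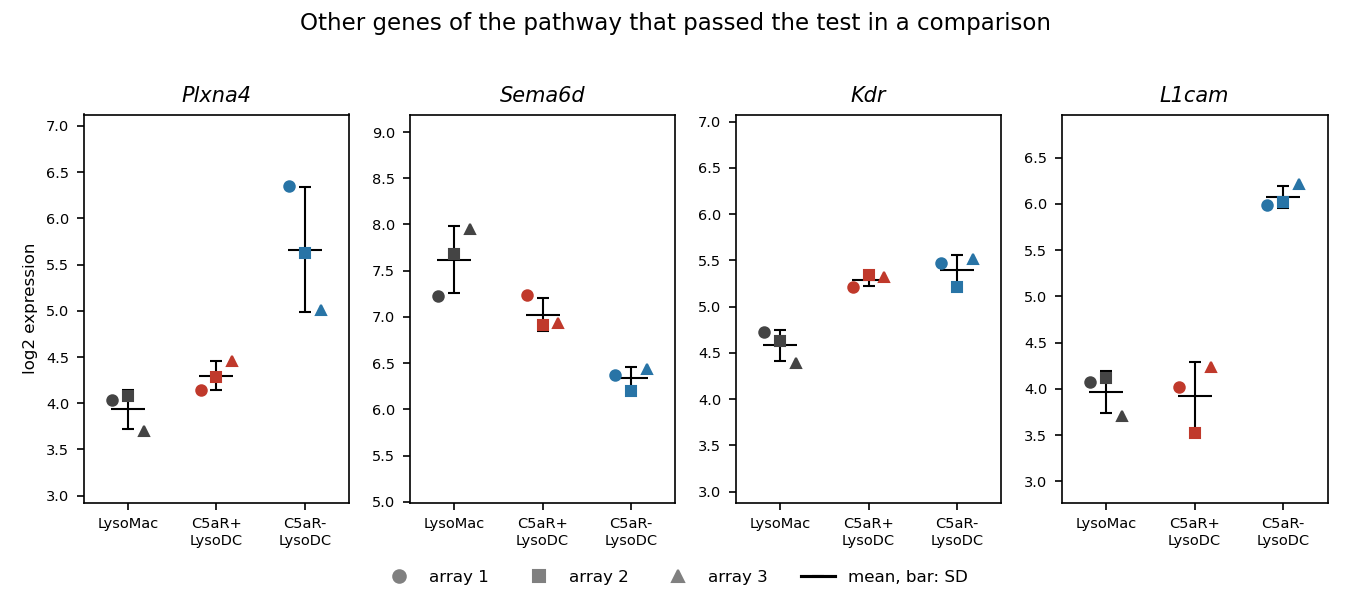
Log2 expression (vertical axis) of the 4 further pathway genes that passed a comparison, in LysoMac, C5aR+ LysoDC and C5aR- LysoDC (horizontal axis). Symbols are single arrays, dashes are means and bars are SD over 3 arrays; C5aR- LysoDC arrays lay apart from all others in Plxna4 and L1cam (above) and Sema6d (below), and LysoMac arrays lay below all others in Kdr.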

How the data were processed

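RNA of 9 sorted samples was measured on whole-transcript mouse arrays. The deposited values are log2 expression per transcript cluster and array, made by the authors with RMA and Affymetrix Power Tools, per the submitters' processing notes; versions, settings and slide or scan records were not stated there. Of 33793 clusters, 23521 had 1 gene symbol, 1814 several and 8458 none; 6 of 151 listed genes had no cluster of 1 symbol. No further normalization was applied. Array medians ran from 3.389 to 3.647.

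Samples were grouped by title. limma 3.58.1 in R 4.3.3 estimated a mean for each population from the 9 arrays (two-sided, 6 residual degrees of freedom), with Benjamini-Hochberg adjustment over all clusters; the script was tested on simulated data. The number of arrays limits precision: the median SE of a difference was 0.337 for the 10 genes. The members and all lists were chosen with earlier results of these data known. The text names all 10 genes, each gene of a pathway list that passed a comparison, or else the 2 with the highest mean over the 9 arrays (a rule for choosing names only), and the 3 genes that followed most closely the member with the largest gap between population means; Trem2 and Tyrobp were added as partners of plexin-A1 after their values were seen.

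The titles number the arrays 1 to 3 in each population. Deviations of same-numbered arrays from their population means correlated at 0.160, 0.255 and 0.407 between C5aR+ LysoDC and LysoMac, which the labels do not explain. Arrays of different numbers were not compared, so whether the numbers mark pairs was not tested. The reported tests used no pairing, and a replicate block was among the alternatives. Such correlations were 0.173, -0.112 and 0.129 between C5aR- LysoDC and LysoMac, and 0.232, -0.0271 and 0.199 between the LysoDC populations.

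Alternatives were a replicate block, other scalings and filters, other variance models, fits of the compared arrays only, and leaving out each array.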

Additional observations from a re-analysis of the deposited data

How the results depend on the processing

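The counts of called genes and the differences of the 10 genes, Plxna4, Sema6d, L1cam and Kdr were recomputed under 20 alternatives (19 for the F test); marker lists and other named genes were not. The count of the 10 genes called in C5aR- LysoDC against LysoMac, 1 as reported, was 2 with quantile normalization, 3 with cyclic loess, 7 with array weights and 1 to 2 when single arrays were left out. Calls over all clusters rose there too. They were 381 higher and 137 lower as reported, 436 and 274 with quantile normalization, and 444 and 291 with cyclic loess. With the replicate block they were 490 and 219. In C5aR+ LysoDC against LysoMac the count of the 10 genes was 1 with array weights. For the F test it was 3 with array weights and 0 to 1 when single arrays were left out. Between the LysoDC populations it was 0 throughout. With the replicate number as a block these counts of the 10 genes were 1, 0, 0 and, for the F test, 1; Plxna2 then had limma adjusted p of 0.00695 and 0.105 against LysoMac, Kdr lost its call (0.0509), and no other call among these 14 genes changed. Clusters called overall moved from 518 to 6682 with array weights, 326 with 1 weight per population, 237 with only the compared arrays and 130 to 1256 when single arrays were left out; from 17 to 1366 with array weights, 4 with only the compared arrays and 4 to 17; from 34 between the LysoDC populations to 59 with the replicate block, 62 with cyclic loess, 57 each with the filter on dim probes and with 1-symbol clusters, 124, 85 and 7 with the variance and sample choices in the same order, and 1 to 67; and from 255 in the F test to 5369 with array weights and 50 to 335. Of clusters called in C5aR- LysoDC against LysoMac 26.4% were lower, against 38.6% with quantile normalization and 39.6% with cyclic loess, 55.2% with array weights and 39.7% without LysoMac array 2; for C5aR+ LysoDC against LysoMac these shares were 0%, 13.6%, 15%, 52.2% and 26.7%, and 17.6% without LysoMac array 3. Signs turned only in differences that did not pass. For C5aR+ LysoDC against LysoMac, Plxnc1 was -0.0823 with quantile normalization, -0.0854 with cyclic loess and -0.32 to 0.69 without single arrays; Sema7a was 0.0614 with array weights and -0.29 to 0.11 without single arrays; L1cam was 0.018 with median centring and -0.19 to 0.16 without single arrays; without single arrays Plxnb2 was -0.53 to 0.11, Plxnd1 -0.83 to 0.0343 and Sema4d -0.39 to 0.0307, each above 0 without LysoMac array 3. Between the LysoDC populations, without single arrays, Nrp1 was -0.35 to 0.15 and Nrp2 -0.22 to 0.11. The causes were not tested. Slide, scan and background alternatives were not run.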

Other observations

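Some genes of the pathway lists had wide gaps between populations without passing the test, and they are given here as values chosen after they were seen. Pgf, a growth factor that binds neuropilins, measured 7.31, 6.90 and 6.99 in C5aR+ LysoDC, above every LysoMac array (5.58, 4.62 and 6.16) and every C5aR- LysoDC array (5.89, 4.15 and 6.16). Its difference was 1.61 ± 0.53 (SE) from LysoMac and 1.66 ± 0.53 from C5aR- LysoDC, with limma adjusted p of 0.745 and 0.566. Sema3f, a secreted ligand of Nrp2, measured 6.49, 7.35 and 6.53 in C5aR- LysoDC against 5.27, 4.51 and 5.74 in LysoMac and 5.03, 5.70 and 4.78 in C5aR+ LysoDC, and its difference from LysoMac was 1.62 ± 0.37 (SE; limma adjusted p = 0.0797). Dpysl2, which encodes a cytoskeletal effector of semaphorin signalling, measured 6.50, 5.36 and 7.46 in LysoMac, 7.34, 7.36 and 8.24 in C5aR+ LysoDC and 7.79, 8.34 and 8.79 in C5aR- LysoDC, and C5aR- LysoDC exceeded LysoMac by 1.87 ± 0.50 (SE; limma adjusted p = 0.136).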
